A study of Mus musculus with 2 samples.

Results

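The microRNAs described here are the family of miR-34 and miR-449, known from multiciliated cells such as the ependyma, and the pair of miR-204 and miR-211, of which miR-204 is known from the choroid plexus. They were chosen by gene symbol, as Mir449a, Mir449b, Mir449c, Mir34a, Mir34b, Mir34c, Mir204 and Mir211. All 8 were present among the 1973 microRNA genes of the tables. Small RNA was sequenced from 2 newborn mice of strain B6NCrl at postnatal day 0, each sample being the forebrain of 1 animal, named pup 1 and pup 3. The labels name no treatment or altered allele, give both pups the same donor record and leave the sex uncollected. The pups form 1 group of 2 biological replicates, so the design allows a description with the spread between pups and no contrast of conditions.

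The miR-34 and miR-449 hairpins give microRNAs that share a seed, the stretch of bases through which a microRNA pairs with its targets. They restrain the cell cycle and are needed for the assembly of multiple motile cilia, which on the ependyma and choroid plexus face the cerebrospinal fluid. Mir34a is also a direct target of the tumour suppressor p53. Mir204 and Mir211 lie in introns of Trpm3 and Trpm1, which code for cation channels. Mir204 is known from the choroid plexus and the retinal pigment epithelium, and Mir211 from melanocytes.

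The mature sequences are shown first because the seed groups the members and because single bases separate some of them. RefSeq (GRCm38.p6) held the hairpin of 7 members, with 13 mature sequences. It had no entry for Mir449b or for the 5p arm of Mir34c. The lines below run 5′ to 3′, and capitals mark the seed, bases 2 to 8.
miR-449a-5p: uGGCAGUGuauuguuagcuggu
miR-449c-5p: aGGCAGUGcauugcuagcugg
miR-34a-5p: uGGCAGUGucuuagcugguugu
miR-34b-5p: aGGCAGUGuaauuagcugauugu
miR-204-5p: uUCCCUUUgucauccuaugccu
miR-211-5p: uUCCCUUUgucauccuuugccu

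The seed GGCAGUG belonged to 4 of the 1738 mature microRNAs in the RefSeq table, all of them members. The seed UCCCUUU belonged to 3, namely miR-204-5p, miR-211-5p and miR-7670-3p, whose gene Mir7670 had 0 counts in pup 1 and 2 in pup 3. Mir7684, whose 5p arm shares its seed with miR-204-3p, had 0 counts in each pup. As a plain run of letters, GGCAGUG occurred on the hairpin's own strand in 17 of 1005 RefSeq hairpins (1.69%), and on either strand in 30 (2.99%). UCCCUUU occurred on the own strand in 11 (1.09%) and on either strand in 14 (1.39%).

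The 5p arms of Mir204 and Mir211 were identical at 21 of 22 positions. Counted from 1 at the 5′ end of miR-204-5p, the difference was A17U, so the first 16 bases were the same. Between miR-449a-5p and miR-449c-5p, 18 of 21 positions were identical, with the differences U1A, U9C and U14C. Apart from the pair of Mir204 and Mir211, none of the 13 mature sequences shared more than 12 bases in a row with the RefSeq hairpin of another gene. Mature sequences of Mir449b and the 5p arm of Mir34c, which had no entry, were not compared. The 12 bases were those of miR-211-3p and Mir365-2.

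The 8 hairpins fell on 5 loci (GRCm38). Mir449c (ENSMUSG00000076146.1, chromosome 13, 113035983 to 113036091), Mir449b (ENSMUSG00000078027.1, 113037419 to 113037498) and Mir449a (ENSMUSG00000065575.1, 113037534 to 113037624) lie on the plus strand in introns of Cdc20b, whose locus is active in multiciliated cells. Mir34c (ENSMUSG00000065587.1, chromosome 9, 51103034 to 51103110) and Mir34b (ENSMUSG00000065492.1, 51103562 to 51103645) lie 451 nucleotides apart on the minus strand, opposite to an intron of Btg4. Mir34a (ENSMUSG00000065493.1, chromosome 4, 150068454 to 150068555, plus strand) overlaps an exon of Gm37795, a gene model of undetermined type. Mir204 (ENSMUSG00000065507.2, chromosome 19, 22750605 to 22750672, plus strand) lies in an intron of Trpm3, and Mir211 (ENSMUSG00000065585.1, chromosome 7, 64205806 to 64205911, plus strand) lies in an intron of Trpm1. No other named hairpin of the tables was within 10000 nucleotides of these loci.

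The library of pup 1 held 9037087 reads assigned to microRNA genes and that of pup 3 held 7678662, which are 40.2% and 40.8% of all its reads. Hairpins known from neurons were present, led by Mir137 (28970 ± 6541 reads per 1000000 assigned reads, CPM) and Mir128-1 (5919 ± 1152 CPM; SD, n = 2). Mir9-3 had 533 ± 214 CPM and Mir124a-1 had 9.85 ± 6.88 CPM (SD, n = 2), while Mir124a-2, Mir124a-3 and Mir9-2 were lower still. Reads mapping to several places were not counted, so this order is that of the counted reads only. Whether their loss lowered the Mir124a and Mir9 hairpins was not tested. The endothelial Mir126a stood at 38678 ± 2564 CPM, and the blood hairpins Mir451a and Mir223 at 271 ± 112 and 131 ± 18.1 CPM (SD, n = 2). A count pools both arms of a hairpin and all cells of the forebrain, so no value below belongs to 1 cell type. In such whole tissue, fewer cells of a type and less RNA per cell cannot be told apart.

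Mir449a, Mir204 and Mir34c supplied nearly all reads of these microRNAs in the newborn forebrain. The 8 hairpins together took 1.25% ± 0.203 of the assigned reads (SD, n = 2). They held 1.397% in pup 1 (95% Wilson interval 1.389 to 1.405) and 1.109% in pup 3 (1.102 to 1.117). Of the reads of the 8 hairpins, Mir449a took 43.8% ± 1.94, Mir204 took 36.0% ± 2.21 and Mir34c took 18.6% ± 4.16 (SD, n = 2). Those 3 hairpins together held 98.38% of the reads in pup 1 and 98.40% in pup 3. All 8 members were detected, meaning 10 or more counts in each pup, as were 433 of the 1973 genes. Intervals from counts cover counting error only. The labels name no molecular identifiers.

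Mir449a, the main hairpin of the Cdc20b locus, had 57027 counts in pup 1 and 36141 in pup 3, or 6310 and 4707 CPM. It ranked 34th among all genes in pup 1 and 44th in pup 3. Mir204 had 47469 and 29361 counts, or 5253 and 3824 CPM, at ranks 42 and 50. Both hairpins were higher in pup 1, and Mir449a was above Mir204 in each pup, 1.20-fold in pup 1 and 1.23-fold in pup 3. Their ranges over the pups overlapped, since Mir449a in pup 3 was below Mir204 in pup 1. A read of a mature microRNA covers it whole, so counts were not divided by length. Divided by hairpin length, Mir204 came first with 66.7 CPM per nucleotide, ahead of Mir449a with 60.5.

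Mir34c had 19710 and 18309 counts, or 2181 CPM in pup 1 and 2384 CPM in pup 3. Mir34b, its neighbour, had 1254 and 669 counts, or 139 and 87.1 CPM. Mir34c was below Mir204 and above Mir34b in both pups with no overlap. Mir34a, the p53 target on chromosome 4, had 616 and 540 counts, or 68.2 and 70.3 CPM, and lay below both values of Mir34b. In pup 1 the ranks of Mir34c, Mir34b and Mir34a among all genes were 82, 206 and 244.

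Mir211, Mir449c and Mir449b were at the low end, where counts are few. Mir211 had 73 counts in pup 1 and 56 in pup 3, or 8.08 CPM (95% Wilson interval 6.43 to 10.2) and 7.29 CPM (5.62 to 9.47). Mir449c had 52 and 51 counts, or 5.75 CPM (4.39 to 7.54) and 6.64 CPM (5.05 to 8.73). Mir449b had 49 and 47 counts, or 5.42 CPM (4.10 to 7.17) and 6.12 CPM (4.60 to 8.14). The order of these 3 was the same in both pups, but their counting intervals overlapped, and Mir449c and Mir449b also overlapped in their ranges over the pups. Per nucleotide of hairpin, the mean of Mir449b was above that of Mir449c (0.0721 against 0.0569 CPM).

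**Figure D1:**
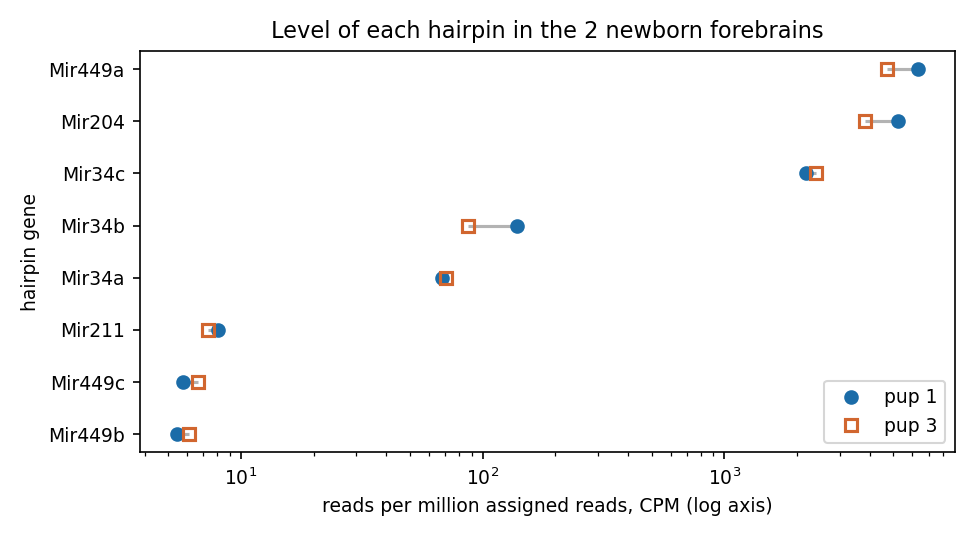
Level of each hairpin gene in pup 1 (filled circles) and pup 3 (open squares), in CPM on a log axis, with a line joining the 2 pups. Mir449a, Mir204 and Mir34c lie at 2181 CPM or more in both pups, while Mir211, Mir449c and Mir449b lie between 5.42 and 8.08 CPM.

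**Figure D2:**
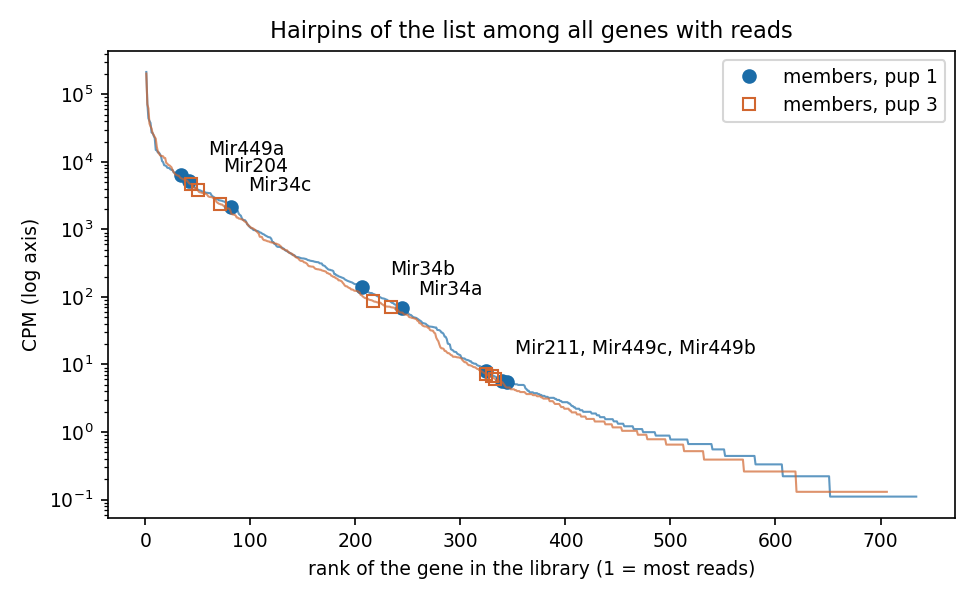
CPM on a log axis against rank for every gene with reads, 1 line per pup, with the 8 hairpins marked (filled circles, pup 1; open squares, pup 3). The hairpins range from rank 34 for Mir449a in pup 1 to rank 344 for Mir449b in pup 1.

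Within the seed family of miR-34 and miR-449, Mir449a held 68.6% ± 5.40 of the reads and Mir34c 28.9% ± 5.51 (SD, n = 2). Mir449a made up 72.5% of the family in pup 1 (95% Wilson interval 72.14 to 72.76) and 64.8% in pup 3 (64.42 to 65.21), and Mir34c made up 25.0% and 32.8%. The other 4 hairpins held little. Mir34b held 1.40% ± 0.278, Mir34a 0.876% ± 0.131, Mir449c 0.0788% ± 0.0180 and Mir449b 0.0733% ± 0.0156 (SD, n = 2). By locus, Cdc20b held 68.8% ± 5.37 of the family and the locus of Mir34b and Mir34c 30.3% ± 5.23 (SD, n = 2).

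In the family of miR-204 and miR-211, Mir204 held 99.83% ± 0.0260 of the reads (SD, n = 2). Counts of Mir211 were 0.154% of those of Mir204 in pup 1 (95% Wilson interval 0.122 to 0.193) and 0.191% in pup 3 (0.147 to 0.248). The sequences above show that a read of the 5p arm tells these hairpins apart at position 17 only. Whether reads of Mir204 with an error at that base were counted at Mir211 was not tested.

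Hairpins of the Cdc20b locus differed widely in level although they lie within 2 kilobases of each other. On the mean of the pups, Mir449a was 954-fold above Mir449b, 35 nucleotides away, and 889-fold above Mir449c. Across 141 other pairs of hairpins on the same strand, at most 2000 nucleotides apart and each detected in this sense, the median ratio of the higher to the lower was 4.80. Only 2 of these pairs (1.42%) had a ratio as large as those of Mir449a, namely Mir487b with Mir544 and Mir17 with Mir19b-1, which were named after their values were seen. Mir34c was 20.2-fold above Mir34b, a ratio reached by 36 of the other pairs (25.5%). Pairs of one cluster share hairpins, and multiply mapped reads were not counted, so these shares describe the tables only.

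Between the pups, the members went in both directions and none differed 2-fold. The pups were compared by an exact two-sided binomial test on counts scaled by edgeR's TMM factors, with Benjamini-Hochberg adjustment over the 460 genes with 20 or more counts in total. This test compares 2 libraries and no conditions, and it knows counting error only. Of the 8 members, 2 were called higher in pup 3, 3 lower and 3 not. Of all genes tested, 30.2% were called higher and 32.8% lower, which makes 63.0% in either direction, so the 5 of 8 members called are near that background. The median log2 ratio of pup 3 over pup 1 was 0.15 for the 8 members and -0.02 for all genes tested. The middle values of the members were those of Mir211 (0.06) and Mir34a (0.25), which were -0.14 and 0.05 when scaled by library totals. The members' median therefore depends on the scaling. A 2-fold difference was reached by 14.8% of the genes tested and by none of the members.

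The log2 ratio of Mir449a was -0.22, with a 95% exact binomial interval of -0.24 to -0.20 and a fold of 0.857 (adjusted p = 2.2e-117 by the exact binomial test). Mir204 had -0.26 (-0.28 to -0.24), a fold of 0.836 (adjusted p = 4.6e-129 by the exact binomial test). The leading hairpins of the 2 families were therefore both lower in pup 3, by a like amount. The ratio of Mir449a to Mir204 was higher in pup 3 by 0.04 on the log2 scale (95% interval 0.01 to 0.06, counting error only), a pair chosen after its values were seen. Under TMM scaling, the differences of Mir449a and Mir204 were smaller than most. Of the 310 genes whose mean reached 10 CPM, 66.5% had a larger absolute log2 ratio than Mir449a, and 62.3% had a larger one than Mir204. This comparison was not made with scaling by library totals.

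Mir34c was higher in pup 3, with a log2 ratio of 0.33 (0.30 to 0.36), a fold of 1.26 (adjusted p = 6.7e-108 by the exact binomial test). Mir34b, from the same locus, was lower, with -0.47 (-0.61 to -0.33), a fold of 0.722 (adjusted p = 1.3e-11 by the exact binomial test). Mir34a was called higher at 0.25 (0.08 to 0.41; adjusted p = 0.00762 by the exact binomial test), but not when the libraries were scaled by their totals, where its log2 ratio was 0.05 (adjusted p = 0.673). Mir449c had 0.41 (-0.18 to 0.99), Mir449b 0.38 (-0.23 to 0.98) and Mir211 0.06 (-0.48 to 0.57), and these 3 did not pass (adjusted p = 0.223, 0.283 and 0.892 by the exact binomial test). With 47 to 73 counts a pup, their intervals reach differences larger than those of the abundant members. Scaled by library totals, the log2 ratios were -0.42 for Mir449a, -0.46 for Mir204, -0.67 for Mir34b, 0.13 for Mir34c and -0.14 for Mir211.

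The median absolute log2 ratio of the 310 genes was 0.36. As a measure of the spread between pups, edgeR gave a biological coefficient of variation of 0.304 (301 genes). Among the members, the absolute log2 ratio was above that median for Mir34b, Mir449c and Mir449b. Mir449c and Mir449b had means below the 10 CPM required of the 310 genes, and neither was called. Under TMM scaling, each difference of Mir449a, Mir204, Mir34c and Mir34a was below the typical difference between these pups, whatever its p-value.

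**Figure D3:**
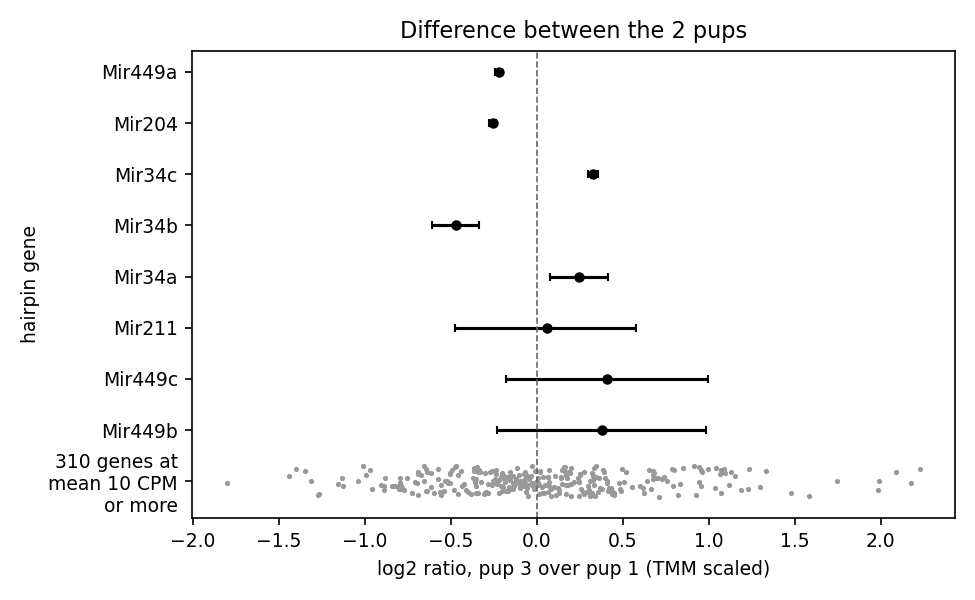
Log2 ratio of pup 3 over pup 1 for each hairpin gene (points, with 95% exact binomial intervals that cover counting error only), above the same ratio for the 310 genes whose mean reached 10 CPM (small grey points). Mir449a, Mir204 and Mir34b lie below 0 and Mir34c and Mir34a above it, all within the spread of the other genes.

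The balance of Mir34c and Mir34b differed between the pups. Both hairpins are printed here because they lie side by side on one strand, and capitals mark the mature arms that RefSeq lists.
Mir34b: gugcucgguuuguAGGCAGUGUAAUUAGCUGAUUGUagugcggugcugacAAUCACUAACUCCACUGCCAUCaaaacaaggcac
Mir34c: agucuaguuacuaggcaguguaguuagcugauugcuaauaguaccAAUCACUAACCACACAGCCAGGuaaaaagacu

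Each of the 2 hairpins held GGCAGUG once. Their 3p arms were identical at 17 of 22 positions, including the seed AUCACUA. Mir34c had 15.7 counts per count of Mir34b in pup 1 and 27.4 in pup 3. The ratio was higher in pup 3 by 0.80 on the log2 scale (95% interval 0.66 to 0.94; Fisher's exact test, adjusted p = 2.6e-30 over 7 pairs), a value that no scaling of the libraries can move. As a share of their locus, Mir34b held 5.98% of reads in pup 1 (95% Wilson interval 5.67 to 6.31) and 3.53% in pup 3 (3.27 to 3.80). Among 108 other neighbouring pairs, at most 2000 nucleotides apart and each at a mean of 10 CPM or more, the median difference was 0.51 and 27.8% differed by as much as Mir34b and Mir34c. A shift of this size was therefore not rare among these pairs. Many of the pairs share hairpins of one cluster, so this share describes the tables only.

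**Figure D4:**
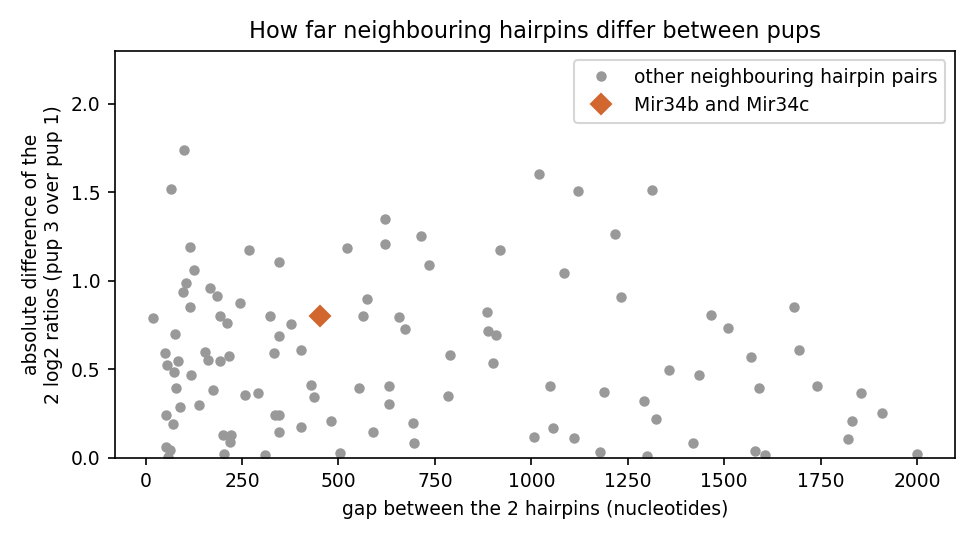
Absolute difference of the log2 ratios (pup 3 over pup 1) of 2 neighbouring hairpins on the same strand against the gap between them in nucleotides. The pair of Mir34b and Mir34c (diamond, 0.80 at 451 nucleotides) lies inside the range of the 108 other pairs (grey).

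For Mir449a and Mir34c, the leading hairpins of their loci, the pair was chosen after its values were seen, so no p-value is given. Mir449a had 2.89 counts per count of Mir34c in pup 1 and 1.97 in pup 3, a log2 difference of pup 3 from pup 1 of -0.55 (95% interval -0.59 to -0.52, counting error only). Mir449b and Mir449c, beside Mir449a, gave -0.60 (-1.18 to -0.02) and -0.63 (-1.19 to -0.07) for Mir449a over each of them, and neither passed (adjusted p = 0.0648 and 0.0579 by Fisher's exact test). The ratio of Mir449b to Mir449c was 0.942 in pup 1 and 0.922 in pup 3 and did not pass either (adjusted p = 1.0 by Fisher's exact test). That of Mir204 to Mir211, also chosen after values were seen, had a log2 difference of -0.31 (-0.81 to 0.19).

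The tables give 2 further count columns without a heading, which sum to the total and were read as the strand of the named gene and the opposite strand. On that reading, the opposite strand had 1 of their 126250 reads in pup 1, a read at Mir34b, and 0 of 85174 in pup 3, which allows a share of up to 0.00352%. Over all genes the share was 2.69% in pup 1 and 1.91% in pup 3. That share is pooled over reads and includes gene models such as Gm24083 (mean 2964 CPM), whose reads all lay on the opposite strand.

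Hairpins of the miR-200 family were higher in pup 3, as was Mir34c among the members, while Mir449a, Mir204 and Mir34b were lower. Mir34a was also called higher, but not when the libraries were scaled by their totals. All 5 hairpins of the miR-200 family, a family of epithelial cells, were called higher in pup 3 by the exact binomial test. Mir429 and Mir200b lie 1693 nucleotides apart with Mir200a between them, and Mir200c and Mir141 lie 336 apart. The 5 calls are therefore not independent of each other. Over all genes tested, 30.2% were called higher and 32.8% lower, and the test knows counting error only. The median log2 ratio of the miR-200 hairpins was 1.99, and their share of assigned reads was 0.368% in pup 1 and 1.05% in pup 3. Mir429 led this list with 3889 ± 2290 CPM, ahead of Mir200b with 1930 ± 1570 CPM (SD, n = 2). Of the 4 hairpins known from eye and pineal, where miR-204 or miR-211 also occur, 3 were called higher and Mir184 was not, with shares of 0.0817% and 0.251%. Mir182 and Mir183 led it with 869 ± 745 and 477 ± 210 CPM (SD, n = 2), and Mir184 had 33 and 21 counts. The part of these cells in the values of Mir204 and Mir211 was not tested.

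Of 9 hairpins linked to p53 other than miR-34, 5 passed as higher in pup 3 and 0 as lower, and the median log2 ratio was 0.07. Over all genes tested 63.0% passed in either direction, 30.2% as higher and 32.8% as lower. In either direction the shares passing in this list and in the neuronal list are near that background. By direction, under TMM scaling of the total counts, larger shares of both lists passed as higher and none as lower. With the column read as the gene's own strand, 4 p53-linked hairpins passed as higher and Mir192 as lower. Mir143 and Mir107 passed as higher at log2 ratios of only 0.03 and 0.07. The lists are short, and Mir15a and Mir16-1 are neighbours, so these shares describe the tables only. Mir15a and Mir143 led the p53-linked list with 9406 ± 3979 and 5317 ± 446 CPM (SD, n = 2). Of 9 neuronal hairpins, 8 were matched by name, of which 5 passed as higher and 0 as lower, and their median was 0.52. The neuronal hairpins that did not pass, Mir124a-3, Mir124a-2 and Mir9-2, had only 6 to 20 counts a pup. Of the 3 blood hairpins, Mir451a and Mir223 were higher and Mir144 was lower. Scaled by library totals, the p53-linked median was -0.13, where 3 passed as higher and 4 as lower, and 1 neuronal hairpin passed as lower beside the 5. Mir126a of endothelium was higher at a log2 ratio of 0.06 but lower at -0.14 when scaled by library totals.

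For the 5 members whose mean reached 10 CPM, the 2 genes nearest by level lay outside the list of members. Nearness was the distance between the log2 CPM values of 2 genes over the 2 pups, and it mostly reflects level. Gm25927 (5467 ± 1043 CPM) and Mir143 were nearest to Mir449a, at distances of 0.03 and 0.19. On the same reading of the columns, all reads of Gm25927 lay opposite to the annotated gene. Mir23a (4659 ± 1127 CPM) and Mir381 (4224 ± 890 CPM) were nearest to Mir204, at 0.06 and 0.14. Mir541 and Mir18 were nearest to Mir34c, Mir326 and Mir363 to Mir34b, and Mir3074-1 and Mir377 to Mir34a, all within 0.22. Mir143, with a log2 ratio of 0.03 (-0.17 when scaled by library totals), lay beside Mir449a in level while Mir449a had -0.22 (-0.42 when so scaled).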

How the data were processed

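The authors deposited a table of read counts per microRNA gene for each library. The notes beside the tables name assembly mm10 and annotation M4. For the aligner and the counter, the sources used here name none. Of 3 count columns without a heading the first, which equals the sum of the other columns in all 1973 genes, was used. The others were read as the gene's own and the opposite strand. Reads mapping to several places (43.0% in pup 1, 43.5% in pup 3), unmapped reads (14.9% and 14.4%) and reads in no gene (1.85% and 1.26%) were left out of library sizes and tests.

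Names and positions came from GENCODE M21 (GRCm38) for 1894 of 1973 identifiers, and sequences from RefSeq (GRCm38.p6). CPM is the count per 1000000 assigned reads. Log2 ratios used a prior count of 0.5 and TMM factors of edgeR 4.0.16 (1.07 and 0.933). Testing was over genes whose counts in the pups summed to at least 20, at an adjusted p of 0.05. The spread came from estimateDisp over genes that reached 10 CPM in each pup. Of the 7 pairs in Fisher's tests, 4 were set by locus and the others, chosen after values were seen, are given without a p-value. The adjustment of these tests was over all 7 pairs. Intervals of these ratios are normal approximations on the log scale. Alternatives were DESeq2 1.42.0 size factors, library totals, other denominators, count minimums and strand columns, a prior count of 2, hairpin length and each pup alone. The test was checked on simulated counts that held counting error only, and the check therefore did not cover the spread between pups. R 4.3.3, Python 3.11.15, scipy 1.17.1 and pandas 2.3.3 were used.

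The members, context lists and tests were chosen with earlier results of these data known. Named genes were the members, the 2 genes nearest to each member with a mean of 10 CPM or more, the leading 2 genes of each context list, hairpins within 10000 nucleotides, and hairpins elsewhere with a member's seed. Other names were chosen after values were seen.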

Additional observations from a re-analysis of the deposited data

How the results depend on the processing

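The share of the 8 hairpins was 1.25% of assigned reads, 0.507% of all reads of the tables and 1.58% of assigned reads without the most abundant gene. It ranged from 1.11% to 1.40% over the single pups. The share of Mir449a in its seed family ranged from 64.8% to 72.5% over the single pups, and that of Mir204 from 99.81% to 99.85%. Mir204 held 99.89% per nucleotide of hairpin, against 99.83%. Under the scaling, count minimum and strand settings tried, 5 members stayed called, except that scaling by library totals left 4, without Mir34a. With it, the 310 genes had a median log2 ratio of -0.23 in place of -0.03, gave Mir211 a log2 ratio of -0.14 in place of 0.06, and turned the calls over all genes from 139 higher and 151 lower to 98 higher and 206 lower. Of 32 log2 ratios of members under other settings, 30 kept their direction and side of the threshold, 1 lost its call and 1 changed sign. A minimum of 100 counts left Mir449b untested. No ratio between pups could be had without 1 of the pups. No paired analysis was possible because the 2 pups form a single group. For Mir211, Mir449b and Mir449c, the depth limits what could be seen between pups.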
